A study of Mus musculus with 83 samples.

Results

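Cytosolic ribosomal protein genes were the rows of the raw count table whose mouse symbol begins with Rpl, Rplp or Rps, followed by a number and at most a short paralogue suffix. The rule found 87 members among 48795 rows, of which 52 were named for the large and 35 for the small ribosomal subunit. GENCODE classes 82 of them as protein-coding and the other 5 (Rpl6l, Rps12l1, Rps3a2, Rps3a3 and Rps4l) as pseudogenes. The libraries came from the frontal cortex of male C57BL/6 mice that were 2 months (young) or 22 months (old) of age. Each library was a pool of 125 neurons of 1 type, cut by laser from 14 µm sections. Pyramidal cells (PYC) were recognised by staining for Slc17a7, and the 3 interneuron types by staining for Pvalb (PV), Sst (SST) or Vip (VIP). There were 12 old libraries per type, 8 young ones for PV and 9 for each of the others, which gives 83 libraries in 8 groups from 12 old and 9 young mice. No genetic change or treatment is given for any group.

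The ribosome joins a small subunit, which reads the mRNA, to a large subunit, which forms the peptide bond. Most of the proteins, though not all, are present in a single copy per ribosome. The mRNAs of these proteins typically begin with a run of pyrimidines, the 5′ terminal oligopyrimidine tract, through which mTOR and the RNA-binding protein LARP1 control their translation together. Neurons also hold ribosomes in dendrites and axons, where local protein synthesis takes place.

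Ribosomal protein genes have many processed pseudogenes and some expressed paralogues, so which letters a read can be assigned by matters for every value that follows. The coding sequences of Rps27 (GRCm38 chromosome 3, 90212522 to 90213651, minus strand) and its paralogue Rps27l (chromosome 9, 66946086 to 66949516, plus strand) are shown because Rps27l is a member whose level passed a test between neuron types. The coding sequences of Rpl39 (chromosome X) and its paralogue Rpl39l (chromosome 16) are shown as a closer pair. They were taken from GENCODE release M21, run 5′ to 3′, and have in capitals the bases at which the members of a pair differ.
Rps27: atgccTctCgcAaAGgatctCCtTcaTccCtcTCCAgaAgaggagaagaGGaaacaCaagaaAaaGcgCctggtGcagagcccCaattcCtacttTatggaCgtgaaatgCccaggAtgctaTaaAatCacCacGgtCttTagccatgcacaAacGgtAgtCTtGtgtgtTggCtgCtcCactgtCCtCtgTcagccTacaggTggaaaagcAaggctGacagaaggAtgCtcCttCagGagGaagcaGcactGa
Rps27l: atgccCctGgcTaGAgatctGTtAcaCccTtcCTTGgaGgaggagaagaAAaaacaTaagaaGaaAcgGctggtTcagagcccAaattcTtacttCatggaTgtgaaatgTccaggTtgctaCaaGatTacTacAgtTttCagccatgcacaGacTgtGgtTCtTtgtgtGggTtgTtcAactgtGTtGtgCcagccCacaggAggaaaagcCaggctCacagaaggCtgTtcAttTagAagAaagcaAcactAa
Rpl39: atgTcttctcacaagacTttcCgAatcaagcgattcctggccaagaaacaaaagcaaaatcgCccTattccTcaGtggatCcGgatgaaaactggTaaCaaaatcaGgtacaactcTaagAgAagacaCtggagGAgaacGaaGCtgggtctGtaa
Rpl39l: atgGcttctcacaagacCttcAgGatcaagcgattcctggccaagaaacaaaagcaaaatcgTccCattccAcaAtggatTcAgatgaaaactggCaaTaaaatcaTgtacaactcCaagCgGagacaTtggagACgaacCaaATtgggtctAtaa

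Rps27 and Rps27l differed at 61 of 255 coding bases (76.1% identity), and the longest run without a difference was 11 bases. Rpl39 and Rpl39l differed at 23 of 156 coding bases (85.3% identity), with a longest common run of 38 bases. When each member's principal transcript was cut into all stretches of 50 bases, a median of 43.9% of a member's stretches occurred letter for letter in a transcript of a gene elsewhere in the genome. At least 50% of stretches were shared in 37 members and none in 3. For Rps27 the share was 98.6%, for Rps12 it was 83.5%, for Rpl3 it was 85.6%, for Rpl4 it was 16.5% and for Rpl8 it was 6.49%.

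The count table had 261 rows named as pseudogenes of 54 of the members. Together they held 0.0240% to 0.0610% of a library's counts, with a median of 0.0427%. In 5 members these rows held more counts than the gene itself. Rpl17 averaged 12.2 CPM (counts scaled to the library total, per mega count) against 48.7 CPM in its named pseudogene rows, Rpl21 had 36.1 against 70.8 CPM, Rpl23a had 9.78 against 14.2 CPM, Rpl7a had 24.0 against 28.1 CPM and Rps12 had 5.74 against 15 CPM. Levels of members with such copies are uncertain, because reads can have been assigned to either row. An exon of another gene overlapped 38 members, in 20 of them on the opposite strand, and the sources used here do not give the strand setting of the counting.

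Promoter windows from RefSeq (GRCm38.p6, 250 bases before to 50 after a transcription start) were on hand for 62 members. They were searched on both strands for 4 short motifs. CTTTCC, a pyrimidine run that can share letters with CCGGAAG only at its ends, occurred in the windows of 32 members (51.6%), against 29.3% of the 27025 genes in the table. CCGGAAG, the core letters bound by ETS family factors, occurred in 25 members (40.3%), against 9.93% of genes. ATGGCG, the core of the YY1 motif, which also holds the letters of a start codon, occurred in 21 members (33.9%), against 10.2% of genes. TATAAA, the TATA box, occurred in 7 members (11.3%), against 15.7% of genes. These shares describe letters in a window and show no binding.

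In 10 windows that may be printed, CTTTCC lay on the transcript's strand within the 15 bases before or the 15 bases from the start. The windows of 5 members that are named below for their values are shown, with CTTTCC in capitals, as examples of where the run lay. They were picked for holding CTTTCC, the start is base 16, and in Rpl39l the run lies wholly before it, so they show no start common to the members.
Rps27: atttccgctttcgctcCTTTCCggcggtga
Rpl28: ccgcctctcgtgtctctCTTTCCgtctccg
Rpl13a: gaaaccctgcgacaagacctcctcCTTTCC
Rpl38: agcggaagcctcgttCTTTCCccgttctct
Rpl39l: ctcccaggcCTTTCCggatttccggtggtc

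They lie at chr3:90213634-90213663 (minus strand), chr7:4792950-4792979 (plus), chr7:45128731-45128760 (minus), chr11:114668565-114668594 (plus) and chr16:10170213-10170242 (plus). Members were spread over 19 chromosomes, and chromosome 7 held the most, with 15.

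Library totals ran from 1.46 to 27.2 M counts (M for mega) around a median of 6.99 M, and 71 to 83 of the members had a count in a library. The summed CPM of 7 pyramidal markers was 2805 to 5326 in PYC pools and 867.6 to 4169 in interneuron pools, and that of 5 GABA markers was 82.7 to 296 in PYC and 920.1 to 4129 in interneuron pools. Pyramidal markers averaged 3282 (old) and 3578 CPM (young) in PYC, 2875 and 3013 in VIP, 1785 and 1960 in SST, and 1591 and 1343 in PV. In VIP pools they were thus above the VIP markers, which averaged 1685 (old) and 2227 CPM (young). The part of this in the comparisons of types was not tested. The markers of a type summed to 650.3 to 1423 CPM in PV, 2437 to 4106 CPM in SST and 1083 to 3878 CPM in VIP pools, and 2 old VIP libraries stood apart. Library 9 had 1742 CPM of SST markers, above its 1083 CPM of VIP markers, and library 11 had 1892 CPM beside 1481 CPM, while the other old VIP libraries had at most 467 CPM of SST markers. Members held 0.409% and 0.400% of counts in these 2, and the old VIP mean was 0.331% without them and 0.343% with them. Summed CPM of 8 astrocyte markers was 1107 to 3838 over all groups, and that of 7 oligodendrocyte markers was 152.8 to 1946. Their part in the results was not tested. Mitochondrially encoded genes were low in 6 libraries (2 PYC, 1 SST and 3 VIP), at 0.215% to 2.50% of counts where the others had 8.31% to 17.0%. Members held 0.312% to 0.402% of counts in those 6. In pools such as these, fewer cells of a type and less RNA per cell cannot be told apart.

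Among the members, levels were compared per length, as counts per kilobase of exon union per M counts (RPKM, mean of 83 libraries). Rplp1, a protein of the acidic stalk that recruits elongation factors, was the highest at 212 ± 75.5 RPKM (SD, n = 83). The next were Rpl19 (85.0 RPKM) and Rpl37 (74.1 RPKM) of the large subunit and Rps23 (83.3 RPKM) and Rps15 (73.9 RPKM) of the small subunit, whose SDs of 25.9 to 50.3 RPKM exceed the gaps between them. The median was 14.5 RPKM over 51 coding members of the large subunit and 12.6 RPKM over 31 of the small subunit. Exon unions include retained introns, which lengthens some members, and with the length of the principal transcript Rplp1 stayed first while Rpl26 and Rpl37 came next at 150.1 and 149.5 RPKM.

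Partners in the same ribosomal structure did not have equal mRNA levels per length, and their order could depend on the length used. The other stalk proteins, the scaffold Rplp0 and Rplp2, had 42.6 and 27.9 RPKM, below Rplp1. By principal transcript they had 52.0 and 60.0 RPKM, in the reverse order and still below Rplp1. Rpl5 and Rpl11, which travel with the 5S rRNA and can bind Mdm2, had 21.7 and 14.5 RPKM. These too changed order by principal transcript, at 41.6 and 47 RPKM. Rps6, the classic substrate of S6 kinase, had 57.0 RPKM, and Rps27a, which is made as a fusion with ubiquitin, had 16.2 RPKM. Rps19, the gene most often mutated in Diamond-Blackfan anaemia, had 5.24 RPKM by exon union and 31.7 RPKM by principal transcript, so its place depended on the length used. Rpl10a, Rps25 and Rpl38, which have been described as present in only some ribosomes, had 10.3, 9.36 and 35.6 RPKM, and Rpl41, the smallest ribosomal protein, had 22.6 RPKM.

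At the low end, Rps12l1 had no count in any library. It shares 100% of its stretches with genes elsewhere, and Rps3a2 shares 90.2%, so their counts are no sure measure of expression. Rpl10l had counts in 1 library, Rpl39l in 4, Rpl3l in 5 and Rps3a2 in 43, with 0.146 to 0.318 RPKM. Rpl10l, Rpl39l and Rpl3l are paralogues known chiefly from testis or striated muscle. Their parents Rpl10, Rpl39 and Rpl3 had counts in all 83 libraries, at 17.2, 11 and 53.0 RPKM. Other paralogues were expressed: Rpl7l1 had 10.4 RPKM beside 24.4 RPKM for Rpl7, Rpl22l1 had 2.02 beside 10.7 RPKM for Rpl22, Rps27l had 1.86 beside 33.3 RPKM for Rps27, and the pseudogene-classed Rps4l had 6.81 beside 23.9 RPKM for Rps4x. Rpl24, a standard part of the large subunit, had counts in only 11 libraries and a mean of 0.571 CPM, and its exons overlap those of Gm28037 and share 77.7% of stretches with genes elsewhere. Across 82 coding members, RPKM and the share of stretches found elsewhere had a Spearman correlation of 0.27, as a description over genes whose read assignment depends on those stretches.

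**Figure D1:**
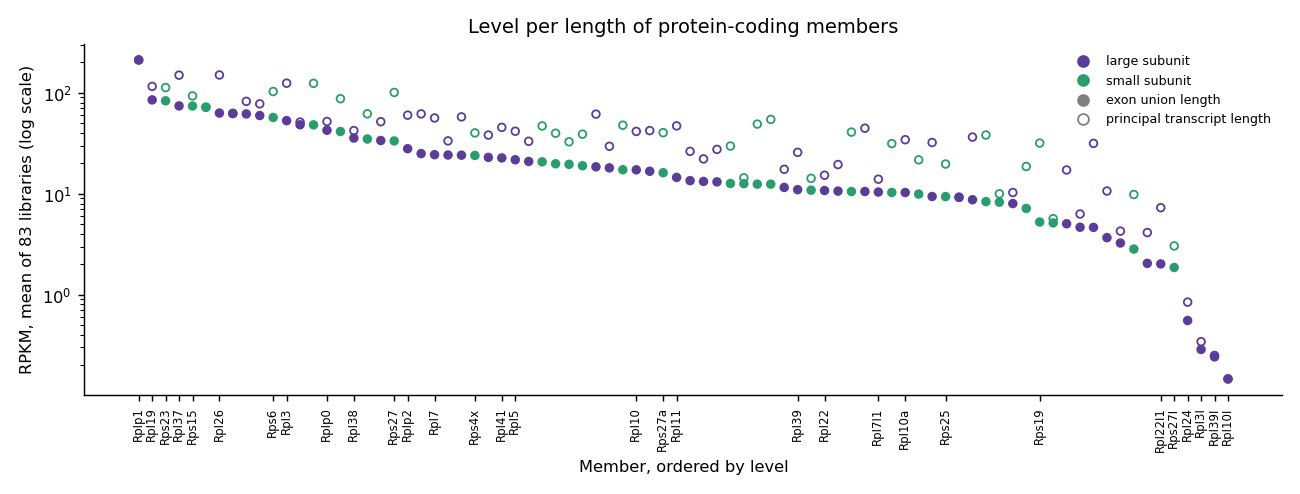
Mean RPKM over 83 libraries (log scale) of the protein-coding members, ordered by level, coloured by subunit and named on the axis for the highest, the lowest and those with set roles; filled points use the exon union length and open points the principal transcript length. Rplp1 is first on either length, and Rpl24, Rpl3l, Rpl39l and Rpl10l lie apart at the low end.

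The order of members was nearly the same in the 4 neuron types. Over 81 members, mean CPM per type had Spearman correlations of 0.96 to 0.97 between types, a description in which each gene keeps its own length and copies. All members together took 0.214% to 0.448% of a library's counts. The 10 with the highest CPM held 32.8% of the members' counts.

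In PYC pools the members took 0.251% to 0.448% of counts in old libraries (median 0.344%) and 0.237% to 0.385% in young ones (median 0.292%). In PV pools they took 0.214% to 0.386% in old (median 0.284%) and 0.232% to 0.352% in young libraries (median 0.288%). In SST pools they took 0.257% to 0.371% in old (median 0.320%) and 0.300% to 0.435% in young libraries (median 0.355%). In VIP pools the range was 0.248% to 0.409% in old (median 0.346%) and 0.261% to 0.402% in young libraries (median 0.327%). In every type the 2 ages overlapped, with the old median above the young one in PYC and below it in SST.

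The large subunit's members took 0.188% ± 0.033 (SD, n = 12) of counts in old PV and 0.220% ± 0.040 (SD, n = 12) in old PYC pools. In SST pools their mean was 0.198% ± 0.026 (SD, n = 12) at the old age against 0.238% ± 0.031 (SD, n = 9) at the young age. For the small subunit the SST means were 0.119% ± 0.011 (SD, n = 12) and 0.127% ± 0.015 (SD, n = 9). In PYC pools the small subunit held 0.127% ± 0.026 (SD, n = 12) at the old age against 0.102% ± 0.021 (SD, n = 9) at the young age. The ratio of large to small counts averaged 1.67 to 1.94 over the 8 groups, with SDs of 0.17 to 0.54, and was not tested.

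**Figure D2:**
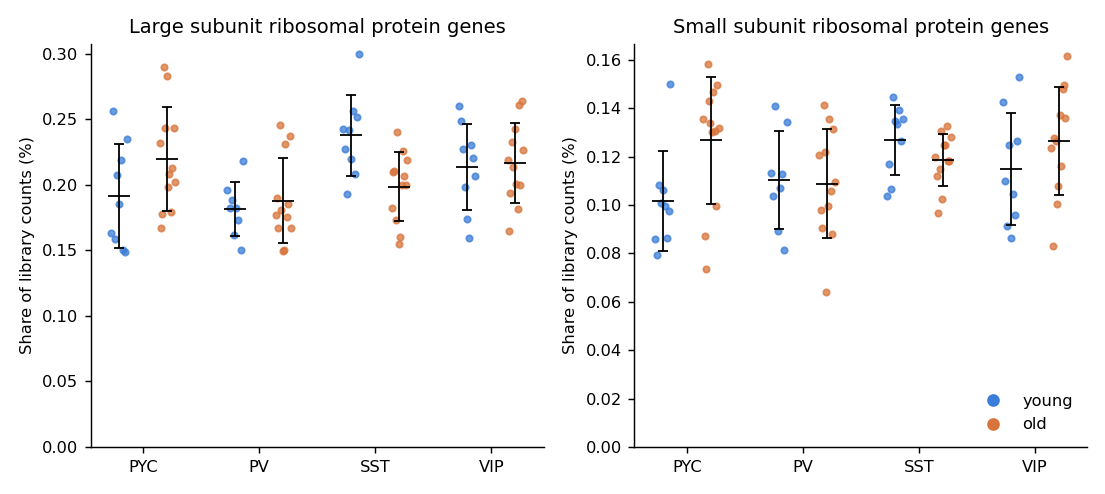
Percent of library counts in the 52 large subunit members (left) and the 35 small subunit members (right) by neuron type and age; each point is 1 library, and bars give mean ± SD. In SST pools the large subunit share was lower in old libraries, with overlap, while the 2 ages lay closer together for the small subunit.

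Among 71 members with at least 10 CPM, the median coefficient of variation between libraries of a group was 0.50 to 0.73. It was 0.10 to 0.18 for the summed share, in which separate variation of the members averages out. The biological coefficient of variation estimated by edgeR within types had a median of 0.73 to 0.86 over the members, against 0.89 to 1.04 over all genes tested. It lay below the trend for genes of like abundance in 78.2% of tested members in VIP, 80.0% in PYC, 81.0% in PV and 88.6% in SST, against 59.9% to 61.1% of all genes. The members had a higher median abundance than all genes.

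The next comparison asked whether a type's ribosomal protein mRNAs stood apart from the other types. Of 81 members tested, none passed in PYC or PV, Rpl4 and Rps27l were called higher in SST, and Rps27l was called lower in VIP, by edgeR's quasi-likelihood test at an adjusted p under 0.05. Of all 19208 genes tested, 8.02% were called higher and 5.31% lower in PYC, 8.29% and 8.75% in PV, 5.46% and 2.55% in SST, and 7.79% and 4.18% in VIP. The members with an unadjusted p under 0.05 numbered 1 in PYC, 4 in PV, 7 in SST and 4 in VIP. Every called gene is also under that p, so the shares called are lower bounds for all genes at it. Nothing is read from these numbers about the members. DESeq2 and limma-voom also called 0 members in PYC and PV. These p-values treat pools as independent, although pools of different types came in part from the same mice.

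Median log2 fold changes of the members against the mean of the other types were -0.01 in PYC, -0.03 in PV, 0.03 in SST and 0.01 in VIP, against 0.01, -0.05, 0.05 and 0.07 over all genes. Positive members numbered 39, 34, 47 and 44 of 81. The median standard error of a member was 0.28 to 0.30, which limits what could be called. The near-zero medians joined 2 ages that lay on different sides in PYC and SST. With young libraries alone the median was -0.13 in PYC and 0.20 in SST, and with old libraries alone it was 0.16 in PYC and -0.12 in SST.

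Rpl4 (ENSMUSG00000032399, chromosome 9, 64173375 to 64178666) encodes a large subunit protein with a loop that lines the exit tunnel of the nascent peptide. Its exon union overlaps the small nucleolar RNA gene Snord16a. It had 69.5 to 265 CPM in young SST (median 158.7) and 53.7 to 293 CPM in old SST pools (median 112.5). Medians in the other 6 groups were 82.9 to 129.6 CPM, and all groups overlapped. The log2 fold change in SST was 0.43 ± 0.14 (SE, adjusted p = 0.0347, edgeR). It was 0.64 in young libraries alone (adjusted p = 0.127, edgeR) and 0.21 in old libraries alone (adjusted p = 0.855, edgeR). With the F number of the sample titles as a factor it was 0.35 and did not pass (adjusted p = 0.172, edgeR), and with limma-voom the adjusted p was 0.0607. That tool instead called 3 other members higher in SST, Rpl6, Rpl13 and Rpl21, which are named here after their values were seen. The share of all genes that limma-voom called is not given here, so nothing is read from these 3.

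Rps27l (ENSMUSG00000036781), the paralogue shown above and a known target of p53, had a count in only 18 libraries. Its counts reached 146 in 1 young SST library (35.3 CPM), 75 in 1 old SST library (19.3 CPM) and 166 in 1 old PYC library (16.5 CPM), and no old VIP library had any. The SST log2 fold change was 2.44 ± 0.81 (SE, adjusted p = 0.0434, edgeR), and without the young SST library with 146 counts it was 0.22 (adjusted p = 0.759, edgeR). With DESeq2 it was -2.61 (adjusted p = 0.610). The VIP log2 fold change was -3.46 ± 1.10 (SE, adjusted p = 0.0236, edgeR), and -1.06 with DESeq2 (adjusted p = 0.829). With counts of 0 in all old VIP libraries, the fitted value depends on the prior count and is no bound.

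On simulated counts the fit of all groups called more unchanged genes of low abundance than its threshold allows, so it was also run on the genes at or above the median abundance. There 71 members were tested and only Rpl4 in SST was called, at a log2 fold change of 0.42 (adjusted p = 0.0438, edgeR). Of all 9604 genes in that fit, 9.14% were called higher and 7.5% lower in PYC, 11.1% and 11.6% in PV, 4.48% and 3.11% in SST, and 7% and 5.53% in VIP.

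**Figure D3:**
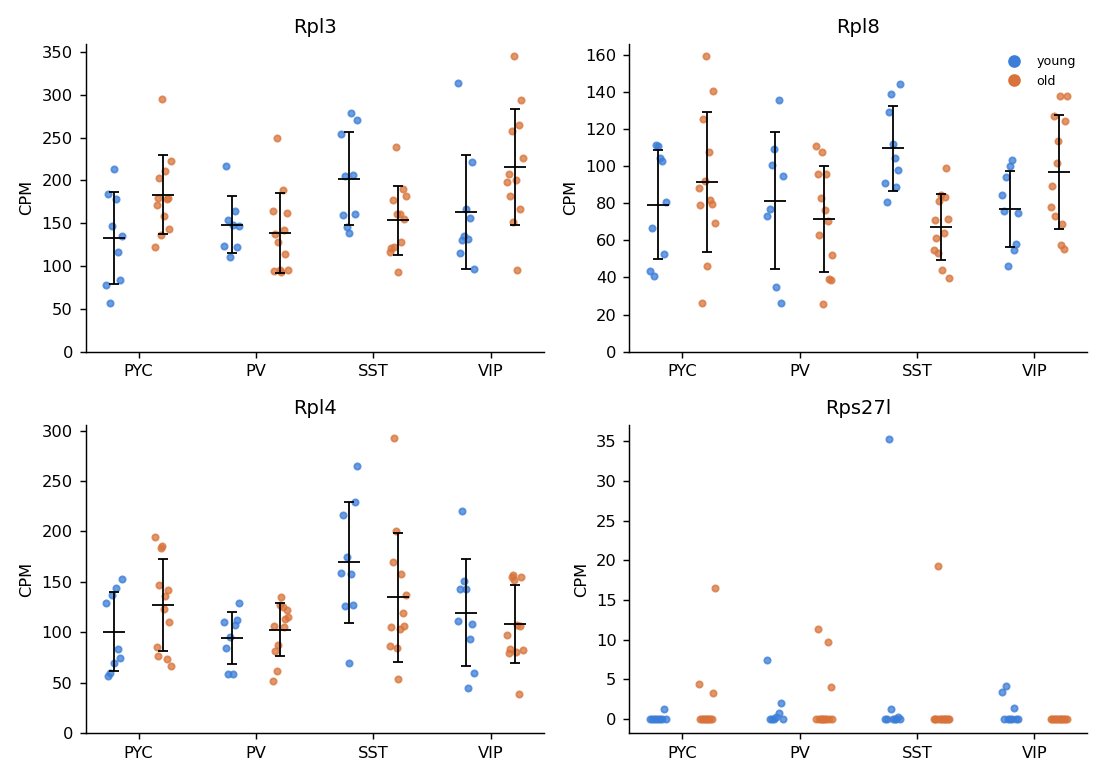
CPM of Rpl3, Rpl8, Rpl4 and Rps27l by neuron type and age; each point is 1 library, and bars give mean ± SD, left out for Rps27l. Rps27l is at 0 in most libraries with a single young SST library at 35.3 CPM, and the old SST libraries lie low for Rpl8.

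Age was compared within each type, old against young, with each library of a type taken as a separate mouse. The p-values measure the spread between these libraries. No member was called in any type by edgeR, DESeq2 or limma-voom among the 80 tested in PYC, 79 in PV, 79 in SST and 78 in VIP. Of all genes tested, 0% were called in PYC, 0% in PV, 0% in SST and 0% in VIP, so the members' 0 is at the background. An unadjusted p under 0.05 was reached by 3 members in PYC, 1 in PV, 4 in SST and 3 in VIP. The share of all genes at that p was 2.91%, 2.32%, 2.87% and 2.98%. The median standard error of a member was 0.47 to 0.57 on the log2 scale, so a shift of a single member by the size of the medians given next was not detectable at this spread.

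The members were mostly positive in PYC and mostly negative in SST. In PYC 61 of 80 had a positive log2 fold change, with a median of 0.21, and in SST 26 of 79, with a median of -0.23. In PV 40 of 79 were positive (median 0.06) and in VIP 47 of 78 (median 0.09), or 43 of 78 (median 0.08) without the 2 old VIP libraries high in SST markers. Medians over all genes tested were 0.00 in PYC, 0.00 in PV, -0.01 in SST and 0.02 in VIP, with 49.3% to 51.8% of genes positive. Members are not independent of each other, and these counts carry no test.

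By subunit, the PYC median was 0.18 for the large (38 of 48 positive) and 0.28 for the small subunit (23 of 32). In SST it was -0.32 for the large (13 of 47 positive) and -0.05 for the small subunit (13 of 32). In VIP it was 0.01 for the large (-0.04 without those 2 libraries) and 0.19 for the small subunit, and in PV it was 0.06 and -0.04. Among members that share under 50% of their stretches with genes elsewhere, 35 of 46 were positive in PYC (median 0.23) and 12 of 45 in SST (median -0.26). Library totals moved with age in SST, with a median of 6.13 M counts in old and 9.75 M in young libraries. With the library total as a covariate the SST median was -0.10, and that of the small subunit was 0.03, a change of sign. In PYC, where the totals had medians of 7.70 M in old and 4.68 M in young libraries, the median was 0.20 with that covariate. Leaving out 1 library at a time gave medians of 0.17 to 0.26 in PYC, -0.04 to 0.06 in PV, -0.27 to -0.15 in SST and 0.04 to 0.12 in VIP.

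**Figure D4:**
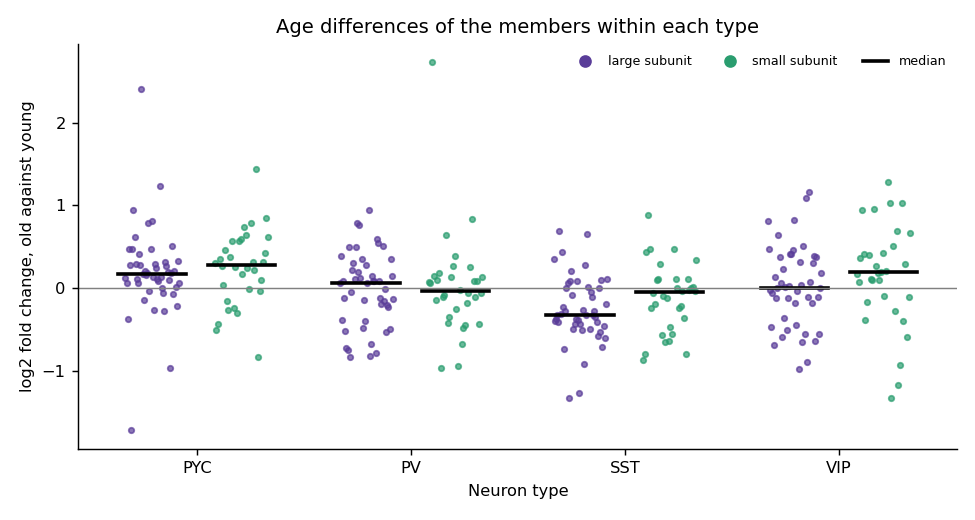
Log2 fold change of old against young for each tested member by neuron type and subunit; each point is 1 member and the black line is the median. The medians lie above 0 in PYC (0.18 and 0.28) and below 0 in SST (-0.32 and -0.05), and no point passed the adjusted test.

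None of the members described next passed the adjusted test; they had the smallest unadjusted p in their type and direction, and the old and young groups overlapped in all 24 such pairs. In SST, Rpl8 (chromosome 15, 76904078 to 76906314), a protein near the peptidyl transferase centre, had 39.9 to 99 CPM in old (median 67.4) and 80.6 to 144 CPM in young libraries (median 104). All 12 old libraries lay below the young median and 8 lay below every young library. The log2 fold change was -0.71 ± 0.23 (SE). The stalk scaffold Rplp0 had 29.7 to 94.9 CPM in old (median 50.2) and 44.3 to 109.5 CPM in young SST libraries (median 94.1). Its log2 fold change was -0.60 ± 0.27 (SE), with 11 of 12 old libraries below the young median. On the positive side in SST were Rpl14 (0.70 ± 0.49), Rps13 (0.89 ± 0.63) and Rps27 (0.48 ± 0.43).

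In PYC, Rpl28 had 20.1 to 77.8 CPM in old (median 50.2) and 10.3 to 38.8 CPM in young libraries (median 32.9). Here 8 of 12 old libraries lay above every young one, and the log2 fold change was 0.79 ± 0.35 (SE). An exon of Rpl28 overlaps Ube2s on the opposite strand, so its reads are uncertain. Rps23, a protein of the decoding centre, had 27.3 to 210.6 CPM in old (median 127) and 43.1 to 122 CPM in young PYC libraries (median 96.8), with a log2 fold change of 0.57 ± 0.27 (SE). On the negative side were Rpl13a (-1.72 ± 1.39) and Rpl11 (-0.37 ± 0.39). Of these, Rpl13a encodes a protein that has also been described as a part of the GAIT complex, which represses translation.

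Rpl3 (chromosome 15, 80077791 to 80091868), a core protein of the peptidyl transferase region with the highest CPM of all members, was among the 3 smallest p-values in PYC, SST and VIP. In PYC it had 122 to 295 CPM in old (median 178.5) and 56.7 to 213 CPM in young libraries (median 135.6). In SST it had 93.3 to 239.5 CPM in old (median 157.6) and 138 to 278 CPM in young libraries (median 205). In VIP it had 95.4 to 345 CPM in old (median 203.6) and 96.9 to 314 CPM in young libraries (median 135.2). The old median was thus the higher one in PYC and VIP and the lower one in SST. The log2 fold changes were 0.47 ± 0.21 in PYC, -0.39 ± 0.18 in SST, 0.46 ± 0.22 in VIP and -0.14 ± 0.20 in PV (SE).

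In VIP, Rps27 had 14.9 to 105.7 CPM in old (median 51.5) and 1.80 to 41.6 CPM in young libraries (median 18.5), and 7 of 12 old libraries lay above every young one. Its log2 fold change was 1.28 ± 0.57 (SE), and nearly all of its stretches have a copy elsewhere. Rpl37 had a log2 fold change of 0.51 ± 0.24 (SE), with 11 of 12 old libraries above the young median. Rps7 (-0.58 ± 0.31), Rpl26 (-0.51 ± 0.29) and Rps28 (-1.33 ± 0.81) led the negative side. In PV, Rpl34 had 17.3 to 67.1 CPM in old (median 39.7) and 7.88 to 29.6 CPM in young libraries (median 19.3), with 8 of 12 old libraries above every young one and a log2 fold change of 0.94 ± 0.42 (SE). Rps12 (2.73 ± 1.47) and Rpl6 (0.51 ± 0.32) followed, and Rps26 (-0.93 ± 0.50), Rps27a (-0.67 ± 0.43) and Rps16 (-0.96 ± 0.67) led the negative side in PV.

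Other members with set roles did not pass either. Rplp1 had log2 fold changes of 0.33 ± 0.23 in PYC, 0.15 ± 0.24 in PV, -0.19 ± 0.21 in SST and 0.00 ± 0.29 in VIP (SE). Rps6 had 0.31 ± 0.32 in PYC, 0.09 ± 0.25 in PV, 0.00 ± 0.24 in SST and 0.29 ± 0.31 in VIP (SE). Rpl5 had 0.19 ± 0.25 in PYC, -0.20 ± 0.32 in PV, -0.35 ± 0.29 in SST and 0.07 ± 0.34 in VIP (SE). Rps19 had larger values with larger errors, 0.56 ± 0.55 in PYC, 0.64 ± 0.58 in PV, 0.29 ± 0.51 in SST and 0.95 ± 0.71 in VIP (SE). In VIP, Rps27a had 1.03 ± 0.54, Rpl41 1.16 ± 0.60, Rpl38 1.10 ± 0.79, Rps4x 1.03 ± 0.63 and Rpl10 0.81 ± 0.50 (SE). Each of these is within 2 standard errors of 0. The members listed for VIP alone are only a part of the panel, all on the positive side. By mean CPM in VIP, Rps25 (21.4 in old, 23.8 in young) and Rps4l (5.66 and 11.95) went the other way. The median over all members tested in VIP was 0.09.

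Whether the age difference itself depended on the type was tested in the fit of all groups. No member was called for the interaction by edgeR, against 3.13% of all genes, and 3 had an unadjusted p under 0.05. At that p the share of all genes is at least the 3.13% called. limma-voom also called 0. Rpl3 had the smallest p (0.0036, adjusted p = 0.0805, edgeR), followed by Rps27l (adjusted p = 0.0847, edgeR) and Rpl8 (adjusted p = 0.197, edgeR). These values and the 3.13% come from the fit that called genes of low abundance too often on simulated counts. When the less abundant genes were left out, as was done for the types, neither Rpl3 nor Rpl8 passed. Their unadjusted p was then 0.0063 and 0.0195 (edgeR). The share of all genes called for the interaction in that smaller fit is not given here. Without the young SST library that held 146 counts of Rps27l, Rps27l passed in the fit of all groups, with an adjusted p of 0.0485 (edgeR). Rps27l had a count in only 18 libraries, so it is among the genes of low abundance that this fit called too often. With that library kept, its adjusted p was 0.850 with limma-voom, and 0.318 without the libraries low in mitochondrial counts (edgeR).

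The age difference in PYC minus that in SST, a pair chosen because earlier results of these data had placed the members on opposite sides, gave 0 called members by edgeR, DESeq2 and limma-voom. Of all genes, 0.682% were called, and 5 members had an unadjusted p under 0.05. The share of all genes at that p is not given here, so nothing is read from the 5. The difference was positive in 62 of 81 members, with a median of 0.36 (0.47 for the large and 0.29 for the small subunit), against -0.01 over all genes. Of 79 members tested in both types, 42 were positive in PYC and negative in SST, and 7 were negative in PYC and positive in SST. Rpl3 differed by 0.88 ± 0.29 (SE, adjusted p = 0.133, edgeR), Rpl8 by 0.91 ± 0.37 (SE, adjusted p = 0.310, edgeR) and Rps24, a small subunit protein, by 1.24 ± 0.52 (SE, adjusted p = 0.342, edgeR). With the less abundant genes left out of the fit, the differences were 0.84 for Rpl3, 0.89 for Rpl8 and 1.21 for Rps24, and none passed.

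Genes that act with the ribosome were taken as lists. For age within a type, 0 genes were called in each of the 6 lists (ribosomal proteins outside the naming rule, translation elongation, translation initiation, ribosome biogenesis, RNA polymerase I, and mTOR and LARP1 control). Of the 6 ribosomal proteins with other names, such as Rpsa, Fau and Rack1, none was called in any comparison. Between types, some elongation factor genes passed the test. Each type was set against the mean of the others, so a low level in 1 type raises the values of the rest. The calls of 1 gene in several types are thus not separate results, for these lists and for the members above. Eef1a1, which brings aminoacyl-tRNA to the ribosome, was lower in PV (log2 fold change -0.93 ± 0.09, SE) and higher in SST (0.65 ± 0.08) and VIP (0.24 ± 0.08). Its neuronal paralogue Eef1a2 was higher in PV (0.55 ± 0.08) and lower in VIP (-0.41 ± 0.08). Of 11 elongation genes, 3 were called higher and 1 lower in PV, 1 higher and 0 lower in SST, 1 higher and 2 lower in VIP, and 0 in PYC. The shares of all genes called higher and lower were 8.29% and 8.75% in PV, 5.46% and 2.55% in SST, 7.79% and 4.18% in VIP, and 8.02% and 5.31% in PYC. These shares hold for the other lists too, and with so few genes nothing is read from the counts about a list.

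Of 30 initiation genes, 3 were called higher in PV (Eif4g2, Eif1b and Eif4a2), 3 lower in VIP (Eif4g2, Eif4a2 and Eif2s3x), 1 lower in PYC (Eif1b) and 0 in SST. Of 35 biogenesis genes in the table, Nop58, a box C/D snoRNP protein, was lower in PYC (-1.03 ± 0.26, SE) and higher in VIP (0.98 ± 0.23), and none was called in PV or SST. Of 13 RNA polymerase I genes, the rDNA factor Ubtf was higher in PYC (0.54 ± 0.17, SE) and lower in PV (-0.51 ± 0.18). Of 14 mTOR and LARP1 genes, Akt1 was lower in PYC (-0.61 ± 0.15, SE), Akt1 and Larp1 were higher and Eif4ebp1 lower in PV, and Eif4ebp1 was higher in VIP. For the age difference of PYC minus SST, Eef1a1 was the only list gene called (0.89 ± 0.21, SE, adjusted p = 0.0158, edgeR), from 0.60 ± 0.17 in PYC and -0.29 ± 0.11 in SST. This pair was chosen with earlier results known, and pools were treated as independent. The adjusted p allows for neither.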

How the data were processed

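The deposited table holds raw counts per Ensembl gene that the authors made from stranded total RNA libraries. The submitters' processing notes name HISAT2 and GRCm38. For the counting tool, annotation release and strand: not given in the sources used here. Symbols were matched for 48349 rows and not for 446. Coordinates and exon lengths are from GENCODE release M21, and promoters are from RefSeq GRCm38.p6. The members and lists were chosen with earlier results of these data known.

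CPM is relative to all counts of a library, ribosomal RNA among them. Rows counted as ribosomal RNA, mitochondrial ones included, held 7.08% to 34.75% of a library's counts. Group means ran from 14.26% in young VIP to 21.65% in young PV, and the part of this in the results was not tested. Age was tested within types, and types and interactions in a fit of all 8 groups, with edgeR 4.0.16 in R 4.3.3 (quasi-likelihood F-test, robust, TMM, filterByExpr with a minimum count of 10, Benjamini-Hochberg adjustment over all genes, 2-sided). Standard errors are the log2 fold change divided by the root of F. Members were named for the 5 highest and 5 lowest RPKM, the 3 largest calls per type and direction, the 3 smallest p per direction for age, the 3 smallest p for interactions, and a fixed panel. Rpl24, the 5 members below their pseudogene rows, Rpl19 and Rps13 in PV and Rpl21 in PYC were named after their values were seen. 1 result under this rule is not reported here. The labels tie no library to a mouse. Library totals set the counting error, and no molecular identifiers are given. Alternatives were RLE, no filter, other filters, DESeq2 1.42.0, limma-voom (3.58.1), covariates (library total, F number of the titles) and libraries left out. Fits were tested on simulated data.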

Additional observations from a re-analysis of the deposited data

Results flagged for a closer look

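Among the young groups of 8 or 9 libraries, 108 group values (the summed shares and 24 named members) were examined for a single library far from the rest, and 12 were found. Chance gives about 1 in 20 where values follow a normal distribution. CPM of rarely counted genes such as Rps27l do not, so the number found is not weighed against that rate.

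The small subunit share was 0.150% in young PYC library 9, where the next was 0.108%. In the same library Rps12 was 24.7 CPM and Rps28 was 62.2 CPM. In young VIP library 2, Rpl14 was 124 CPM and Rpl34 was 113 CPM. In young VIP library 7, Rplp0 was 575 CPM, where the next was 82.7 CPM. Rps23 was 229 CPM in young VIP library 9, and Rps26 was 116 CPM in young VIP library 4. Rps16 was 57.4 CPM in young PV library 8. Rps27l stood apart in 3 groups, with 1.28 CPM in young PYC library 8, 7.47 CPM in young PV library 1 and 35.3 CPM in young SST library 3.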

How the results depend on the processing

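Of 827 values recomputed under another setting, 783 kept their direction and side of the threshold or moved by less than the spread between libraries. A value that passed in neither setting could count as kept even where its p moved far, so this number does not measure robustness. With no filter, age called 0 members in PYC, 1 in PV, 3 in SST and 4 in VIP, where 5734 to 7117 of all genes were called, and the interaction called 4. In SST against the other types 1 member was called among genes no lower than the median abundance, with DESeq2 and with the library total, and 0 with the F number, young or old libraries alone. In VIP 2 were called with no filter, and 0 among genes no lower than the median abundance, with DESeq2, limma-voom, the F number, and young or old libraries alone. In PV 1 was called with no filter and with the library total, and 2 with pseudogene rows added (Rpl19 and Rps13), and in PYC 1 without the libraries low in mitochondrial counts (Rpl21). For most settings in this section the share of all genes called is not given here, so nothing is read from the counts of members called. Without young SST library 3, 1 member was called in PV, 1 in SST and 1 for the interaction. The cause was not tested. Leaving out that library or the 2 old VIP libraries, which changed no count of members called, the principal transcript length and the subsets of members by class or shared stretches were chosen after seeing the data.

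Rpl11 turned to 0.0201 in PYC with the F number, and Rps27l in SST turned to -2.61 with DESeq2 and -1.11 with the F number. Mitochondrial rows and rows of the GENCODE class ribosomal RNA were taken out of the total, while other rows counted as ribosomal RNA stayed. The summed share was then 0.336% in young PV, 0.362% in old SST, 0.405% in young SST and 0.388% in old VIP. These values do not show the effect of all ribosomal RNA. With pseudogene rows added, the shares of the same groups were 0.331%, 0.360%, 0.413% and 0.389%. PV had no library low in mitochondrial counts, and DESeq2 was not run for the interaction. No paired analysis was possible because the labels give no replicate numbers or mice. The high spread between libraries limits what single members can show.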
